A study of Mus musculus with 12 samples.

Results

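AOM/DSS treatment was compared with control in epithelial cells scraped from the mouse colon, in 4 AOM/DSS and 4 control libraries, which are 8 of the 12 libraries of the series. Every gene with an FPKM (fragments scaled for gene length and library size, the deposited unit) of 1 or more in at least 4 of these 8 libraries was described, which kept 11748 of the 24391 gene symbols in the files. The control group is untreated as far as the labels say, and the AOM/DSS group received azoxymethane (AOM), a carcinogen, and dextran sulfate sodium (DSS), a polymer that inflames the colon. Both groups were C57BL/6 mice of 18 weeks, and the labels give no dose, schedule, sex, cage or time of day of sampling. The remaining 4 libraries, from AOM/DSS with curcumin, entered the model as a group of their own. The proximal part of each colon and tumours of its right side were cut away before scraping, so the cells come from what remained. Loosely spun pellets were washed to lower the share of blood cells. Libraries are named by group and by the replicate number of their titles, 0 to 3, and 4 values in a row are replicates 0, 1, 2 and 3 of the group named.

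The colon is lined by a single layer of absorptive cells and mucus-secreting goblet cells that are renewed from stem cells in the crypts. Absorptive cells at the surface take up sodium chloride, water and short-chain fatty acids through exchangers, channels and the sodium pump, and recover calcium under control of vitamin D. AOM alkylates DNA, and repeated injury and repair after DSS speed the outgrowth of tumours, so this treatment is a widely used model of cancer arising in colitis. Inflamed colon epithelium is known to make oxidants with its own oxidases, to secrete antimicrobial proteins and to lose transporters of the mature surface cell.

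Read totals recovered from the FPKM steps ran from 5567988 in control 1 to 14004870 in AOM/DSS 3. Libraries differed in base composition: genes rich in G and C were favoured in control 0, AOM/DSS 0 and AOM/DSS 1 (the GC-rich libraries), and AT-rich genes in the remaining 5. The epithelial label held: Epcam, the adhesion molecule of epithelial cells, was at 722, 829, 695 and 738 FPKM in control and 723, 740.2, 681 and 665 in AOM/DSS, and 0 of 12 tested epithelial identity genes were called. Of 15 neutrophil markers in the files 1 passed the filter, and 2, the granule genes Elane and Prtn3, were listed at 0 in all 8 libraries. The summed neutrophil level was 1.83, 4.65, 3.38 and 2.23 FPKM in control and 3.54, 16.98, 6.76 and 16.2 in AOM/DSS, highest in AOM/DSS 1 and 3. The marker that passed, S100a9, was at 0, 1.503, 0.137 and 0.307 FPKM in control and 0.194, 5.94, 2.33 and 3.45 in AOM/DSS (log2 fold change 1.26, unadjusted p = 0.0126, adjusted p = 0.208), and was called with AOM/DSS 0 left out (adjusted p = 0.0256). Summed marker levels overlapped between the groups for macrophages and dendritic cells (40.5 to 105 FPKM in control and 61.3 to 113 in AOM/DSS), B and plasma cells (94.4 to 138 and 126 to 193), T and NK cells (8.92 to 12.2 and 7.06 to 27.8) and fibroblasts (4.37 to 30.3 and 10.2 to 96.7). None of the tested markers of these 4 cell types was called. All 8 tested macrophage and dendritic markers and all 9 tested B and plasma cell markers nevertheless had the higher mean in AOM/DSS. The smooth muscle (5 tested), endothelial (2), neuronal and glial (1) and red blood cell (7) lists held no call either. The same was true of the mast (3), enteroendocrine (9) and tuft cell (10) lists. Where so few markers passed the filter, the absence of calls says little about these cells. The part of these cells in the results below was not tested. In bulk RNA, fewer cells of a type and less RNA per cell cannot be told apart.

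AOM/DSS 3 stood apart from the other 7 libraries. In it, 81 genes reached at least 5 FPKM and at least 4 times the next highest library (with 0.25 FPKM added to that library), against 3, 1 and 2 genes in AOM/DSS 0, 1 and 2 and 0 in each control library. They include Notum, a secreted enzyme that inactivates Wnt proteins, at 0.0481, 0, 0 and 0.0399 FPKM in control and 0.151, 0.0571, 0 and 28.99 in AOM/DSS. Wif1, a secreted Wnt inhibitor, showed the same pattern, at 0.13, 0.439, 0.352 and 0.0718 FPKM in control and 0.364, 0, 0.272 and 51.8 in AOM/DSS. Nkd1, a feedback inhibitor of Wnt signalling, was at 0.109, 0.0883, 0.0643 and 0.0541 FPKM in control and 0.16, 0.233, 0.313 and 13.9 in AOM/DSS, and Apcdd1 and Mmp7, a matrix protease, were far above in this library as well.

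A further 11 of the 81 symbols are alpha-defensins of the Defa family, peptides of small intestinal Paneth cells, whose close copies may share reads, so the split among them is uncertain. Defa6 was at 0, 0, 0.254 and 0 FPKM in control and 0, 0, 0.618 and 60.6 in AOM/DSS. Mesenchymal genes were in the list too, such as Vim, the intermediate filament of connective tissue cells, at 10.4, 6.01, 9.35 and 2.63 FPKM in control and 4.67, 5.34, 9.602 and 55.9 in AOM/DSS. Pancreatic lipase-related genes Pnliprp1 and Pnliprp2 and the ileal bile acid transporter Slc10a2 were also far above in AOM/DSS 3. These genes were picked by their pattern, so their values are a description with no test. Of the 81, 25 passed the filter and 0 were called. Because of this library, counts are also given below without it.

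**Figure D1:**
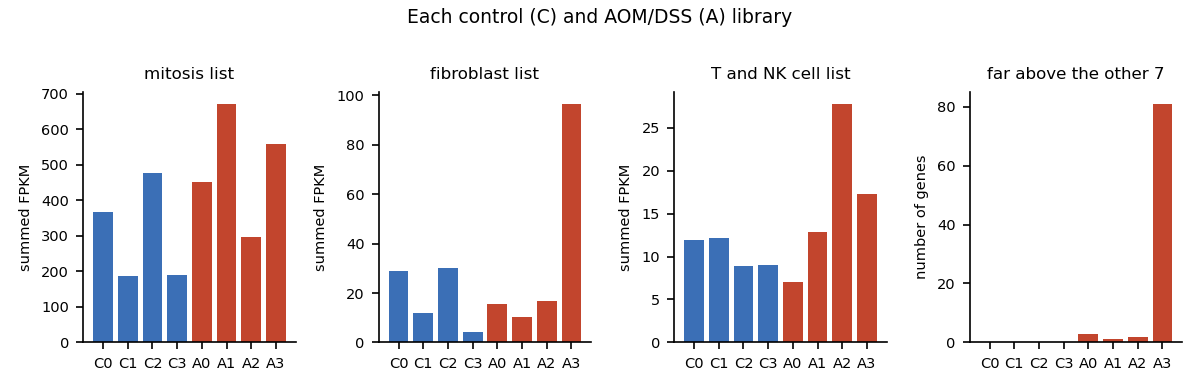
Bars give, for each control (C0 to C3) and AOM/DSS (A0 to A3) library, the summed FPKM of the mitosis, fibroblast and T and NK cell lists and, at right, the number of genes at least 4 times above the other 7 libraries. The fibroblast sum was 96.7 FPKM in AOM/DSS 3 against at most 30.3 in the others, and 81 genes stood far above there; the mitosis sum overlapped between the groups.

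At an adjusted p below 0.05, 65 genes were higher in AOM/DSS (0.553% of the 11748 tested) and 111 were lower (0.945%), or 1.5% in either direction. All 4 AOM/DSS libraries lay above all 4 controls in 62 of the 65 and below them in 108 of the 111, whereas over all tested genes 278 (2.37%) lay wholly above and 432 (3.68%) wholly below. The called genes differed in level: the median control level was 4.35 FPKM for genes called higher, 30.6 for genes called lower and 11.1 for all tested genes. The median log2 fold change of all tested genes was 0.01, and 39 called rises and 44 called falls reached 1 in size on the log2(FPKM + 1) scale. Unadjusted p-values were below 0.05 for 1580 genes, 737 higher and 843 lower.

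Calls depended on the libraries entered. Without AOM/DSS 3, 31 genes were called higher and 49 lower, and 71 of the 176 calls remained. Leaving out control 3 kept 51 of the 176, control 0 kept 77, AOM/DSS 0 kept 79, control 1 kept 100, control 2 kept 105, AOM/DSS 1 kept 117 and AOM/DSS 2 kept 137. For 48 genes, 18 higher and 30 lower, the call held whichever of the 8 libraries was left out. Below, such a gene is said to hold in every leave-out, and for most others the text gives how many of the 8 leave-outs ended the call and the highest adjusted p among them. Within the GC-rich libraries alone 5 genes were called higher and 2 lower, and within the AT-rich libraries alone 4 and 0. The median log2 fold change of the 65 genes was 1.06 in the GC-rich and 1.08 in the AT-rich libraries, and that of the 111 genes -0.92 and -0.88. These medians describe genes chosen on the same libraries, and control 0 is the only control among the GC-rich libraries. Single genes could differ far more in size, and some with a wide gap are given, GC-rich libraries first. Log2 fold changes were 0.40 and 1.65 for Nfil3 and 2.13 and 0.62 for Fkbp11. They were -3.49 and -1.86 for S100g and -1.27 and -2.75 for Fxyd4.

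**Figure D2:**
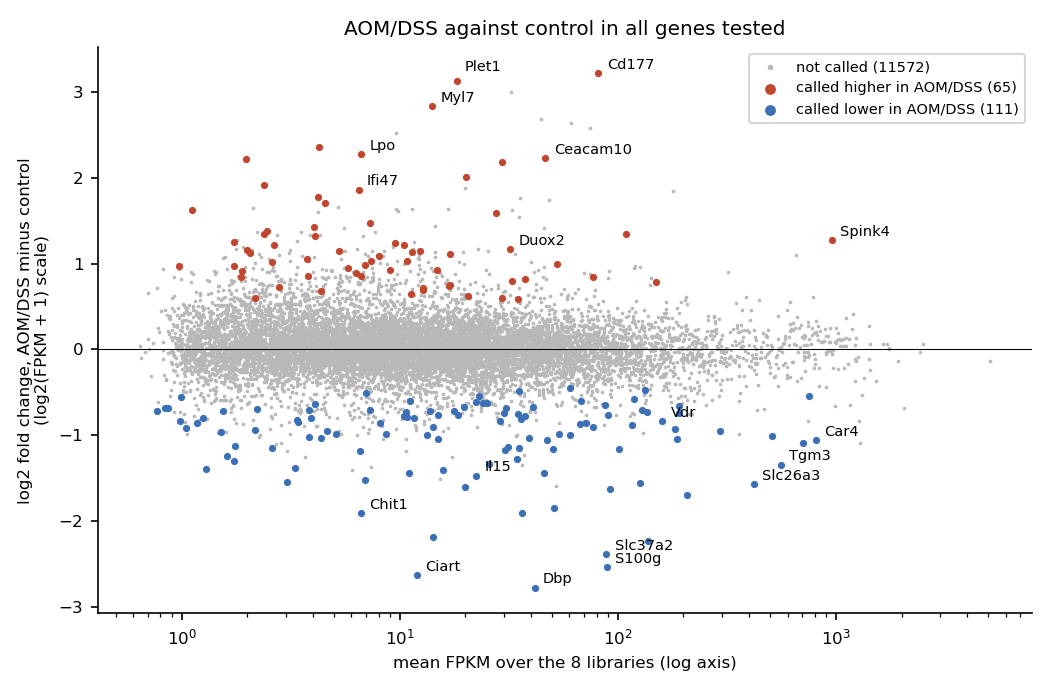
Each point is 1 of the 11748 tested genes, placed by its mean FPKM over the 8 libraries (log axis) and its log2 fold change, AOM/DSS minus control; red points are the 65 genes called higher and blue points the 111 called lower. Rises reach 3.23 (Cd177) and falls -2.78 (Dbp).

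The largest log2 fold changes among the rises, those of Cd177 and Plet1, were of surface glycoproteins, with Myl7 (2.84) next. Of 27 tested members of a list of surface glycoproteins, Ly6 and Ceacam families, 5 were called higher and 0 lower, with a list median of 0.11 beside 0.01 over all genes. Without AOM/DSS 3, 4 of the 5 calls were kept. Cd177, a surface protein best known from neutrophils, was at 14.3, 15.8, 19.2 and 10.2 FPKM in control and 203, 156, 117 and 117 in AOM/DSS. The groups lay far apart, with AOM/DSS 0 highest (log2 fold change of 3.23 with an SE of 0.22, adjusted p = 2.38e-05), and the call held in every leave-out. The summed neutrophil level was 3.54 FPKM in AOM/DSS 0, the library highest for Cd177, and 16.98 in AOM/DSS 1; its part in the Cd177 and Slpi values was not tested. Ceacam10, a secreted member of the carcinoembryonic antigen family, was at 12.2, 16.9, 20.4 and 13.3 FPKM in control and 98.98, 82.7, 63.9 and 64.5 in AOM/DSS, in the same order of AOM/DSS libraries up to the near tie of replicates 2 and 3. Ceacam10 had a log2 fold change of 2.24 (SE 0.18, adjusted p = 0.000108). Plet1, known from the surface of progenitor cells, was at 1.16, 7.36, 2.76 and 2.22 FPKM in control and 31.1, 40.2, 25.1 and 36.1 in AOM/DSS and did not overlap between the groups (log2 fold change of 3.13 with an SE of 0.38, adjusted p = 0.00259). Ly6e, a membrane protein bound by a lipid anchor, stood at 115, 89.3, 156 and 83.2 FPKM in control and 179.9, 202, 161 and 206 in AOM/DSS, with control 2 just under the lowest AOM/DSS library (log2 fold change of 0.79 with an SE of 0.18, adjusted p = 0.0493), and 6 of 8 leave-outs ended the call (adjusted p up to 0.172). Plet1os, whose exons share 21% of their bases with Plet1 on the other strand, was the remaining one of the 5 calls. Reads in the shared stretch may come from either gene, so Plet1 and Plet1os may not be separate calls. Ly6d, at 2.95, 4.84, 3.94 and 1.86 FPKM in control and 2.51, 13.3, 23.8 and 23.8 in AOM/DSS, overlapped and was not called (log2 fold change 1.64, adjusted p = 0.176). Neither was Plaur, the urokinase receptor, at 1.46, 1.27, 1.08 and 2.88 FPKM in control and 2.99, 3.797, 3.25 and 5.04 in AOM/DSS, although its groups did not overlap (log2 fold change 0.86, adjusted p = 0.201).

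Enzymes that make oxidants were among the rises. Of 22 tested oxidases and peroxidases with their partners, 5 were called higher and 0 lower, and the list median was 0.06, while of 42 tested antioxidant and reductase genes 0 were called higher and 1 lower (Ephx2). Without AOM/DSS 3, 2 of the 5 calls were kept (Lpo and Duox2), and without control 0, 1 (Lpo). Lpo, lactoperoxidase, which uses hydrogen peroxide to make antimicrobial oxidants, was at 0.9296, 3.03, 2.38 and 0.687 FPKM in control and 11.2, 12.1, 10.04 and 12.8 in AOM/DSS, nearly level among the AOM/DSS libraries. Lpo had a log2 fold change of 2.28 (SE 0.29, adjusted p = 0.00283). Duox2, an oxidase of the apical membrane that makes hydrogen peroxide, was at 17.4, 17.5, 20.3 and 19.8 FPKM in control and 38.7, 71.5, 34.4 and 37.5 in AOM/DSS, with AOM/DSS 1 highest. Duox2 had a log2 fold change of 1.17 (SE 0.22, adjusted p = 0.0209). Leaving out control 0 or control 3 ended the Duox2 call (adjusted p up to 0.0615). Nox1, the superoxide-making oxidase of colon epithelium, was at 7.17, 3.76, 9.21 and 4.14 FPKM in control and 15.1, 17, 12.7 and 14.3 in AOM/DSS. All AOM/DSS libraries were above all controls (log2 fold change of 1.22 with an SE of 0.26, adjusted p = 0.0423), but 6 of 8 leave-outs ended the Nox1 call (adjusted p up to 0.152). Cyba, the membrane partner of Nox1, was at 75.2, 54.2, 65.5 and 61.3 FPKM in control and 95.7, 139.7, 101 and 127 in AOM/DSS and did not overlap, yet missed the threshold (log2 fold change 0.84, adjusted p = 0.0715). Nos2, the inducible nitric oxide synthase, was at 1.41, 0.444, 0.863 and 2.18 FPKM in control and 4.14, 5.34, 2.82 and 3.93 in AOM/DSS (log2 fold change of 1.22 with an SE of 0.24, adjusted p = 0.0298), a low level at which 6 of 8 leave-outs ended the call (adjusted p up to 0.0751). Duoxa2, needed for Duox2 to reach the surface, had a log2 fold change of 1.59 (adjusted p = 0.041), and 7 of 8 leave-outs ended the call (adjusted p up to 0.132). The gene is uncertain, as Duoxa1 on the other strand overlaps 42.8% of its exon bases. Maob, a monoamine oxidase, lay wholly below control without being called, at 17.9, 16.3, 21.6 and 17.1 FPKM in control and 14.4, 10.7, 12.1 and 8.91 in AOM/DSS. Maob had a log2 fold change of -0.63 (adjusted p = 0.0777).

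Some products of goblet cells and of the secretory route were among the rises, a grouping made after the values were seen. Spink4, a protease inhibitor made by goblet cells, was the most abundant gene called higher, at 420.1, 742, 730.5 and 397 FPKM in control and 1421, 1669, 1047 and 1256 in AOM/DSS. The AOM/DSS libraries lay between 1047 and 1669 FPKM and the controls at 742 or less (log2 fold change of 1.28 with an SE of 0.22, adjusted p = 0.0136), and leaving out control 3 alone ended the call (adjusted p = 0.0527). Galnt12, an enzyme that starts the sugar chains of mucins, was at 22.6, 28.8, 31.1 and 25.5 FPKM in control and 53.6, 50.2, 41.9 and 47.8 in AOM/DSS, with no overlap. Galnt12 had a log2 fold change of 0.82 (SE 0.13, adjusted p = 0.00857), and held in every leave-out. It was the 1 call among 27 tested mucin and mucin glycosylation genes, of which 22 had the higher mean in AOM/DSS (median 0.22), and outside that list its relatives Galnt10 and Wbscr17 were called as well, as given below. Muc2, the gel-forming mucin of the colon, was at 186, 238, 225 and 221 FPKM in control and 634, 387, 265 and 412 in AOM/DSS, wholly above control but not called (log2 fold change 0.90, adjusted p = 0.0812). Agr2, a disulfide isomerase that helps fold Muc2, overlapped at 548, 677, 787 and 459 FPKM in control and 1261, 1057, 679.5 and 797 in AOM/DSS. Agr2 had a log2 fold change of 0.61 (adjusted p = 0.209).

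Kdelr3, a receptor that returns proteins to the endoplasmic reticulum, was at 4.54, 4.595, 8.12 and 3.64 FPKM in control and 20.5, 12.7, 8.82 and 13.4 in AOM/DSS, where the lowest AOM/DSS library was close to the highest control. Kdelr3 had a log2 fold change of 1.25 (SE 0.25, adjusted p = 0.0293), and 5 of 8 leave-outs ended the call (adjusted p up to 0.113). Ckap4, a protein of the sheets of the endoplasmic reticulum, was at 9.63, 4.53, 9.08 and 6.74 FPKM in control and 20.7, 17.9, 13.97 and 17 in AOM/DSS. Ckap4 had a log2 fold change of 1.15 (SE 0.21, adjusted p = 0.0175), a call that ended without control 3 or AOM/DSS 0 (adjusted p up to 0.0673). Fkbp11, a folding enzyme of secretory cells, was at 3.56, 8.29, 10.3 and 5.47 FPKM in control and 19.2, 18.8, 10.9 and 14.5 in AOM/DSS, with control 2 only just under AOM/DSS 2. Fkbp11 had a log2 fold change of 1.142 (SE 0.26, adjusted p = 0.0487), and 6 of 8 leave-outs ended the call (adjusted p up to 0.17). Kdelr3, Ckap4 and Fkbp11 were brought together after their values were seen. None of 35 tested chaperones and unfolded protein response genes was called, though 26 had the higher mean in AOM/DSS (median 0.21). Sec61a1, of the channel through which proteins enter the endoplasmic reticulum, was at 82.8, 76, 74.9 and 76.5 FPKM in control and 111, 117, 85.8 and 96.3 in AOM/DSS (log2 fold change 0.39, adjusted p = 0.176), and the folding enzyme P4hb had a log2 fold change of 0.39 (adjusted p = 0.2). Clca3b, of the calcium-activated chloride channel regulator family, was also called (log2 fold change 1.35, adjusted p = 0.0472), and 5 of 8 leave-outs ended the call (adjusted p up to 0.169). It has close copies, so reads may be shared.

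Other enzymes that start, extend and cap sugar chains were called in both directions. Galnt10, which like Galnt12 starts mucin-type chains, was at 27.1, 23.5, 19.8 and 22.1 FPKM in control and 44.98, 33.04, 30.2 and 34.5 in AOM/DSS. Galnt10 had a log2 fold change of 0.60 (SE 0.14, adjusted p = 0.0492), and 7 of 8 leave-outs ended the call (adjusted p up to 0.169). St3gal4, which adds terminal sialic acid, was at 349, 377, 358 and 444 FPKM in control and 179, 281, 219 and 134 in AOM/DSS, lowest in AOM/DSS 3. St3gal4 had a log2 fold change of -0.95 (SE 0.19, adjusted p = 0.0345). B4galt1, a galactosyltransferase of N-glycans and lactose synthesis, was at 90.2, 76.2, 85.4 and 117 FPKM in control and 43.4, 64.3, 56.7 and 39.1 in AOM/DSS. B4galt1 had a log2 fold change of -0.86 (SE 0.17, adjusted p = 0.0321). Leaving out single libraries ended the call of St3gal4 in 6 and of B4galt1 in 5 of 8 cases (adjusted p up to 0.132 and 0.12). Abo, the glycosyltransferase of the ABO blood group, was at 12.8, 14.9, 11.6 and 15.2 FPKM in control and 8.004, 8.603, 7.43 and 7.31 in AOM/DSS, a fall that held in every leave-out. Abo had a log2 fold change of -0.72 (SE 0.11, adjusted p = 0.00774). Mgat4a, which branches N-glycans, was at 153, 148, 148 and 188 FPKM in control and 95.9, 99.2, 119 and 77.7 in AOM/DSS. Mgat4a had a log2 fold change of -0.71 (SE 0.14, adjusted p = 0.0297), and 4 of 8 leave-outs ended the call (adjusted p up to 0.113). Wbscr17, a further enzyme of the mucin-type family that Galnt12 belongs to, fell from a low level, at 2.55, 2.44, 2.31 and 1.92 FPKM in control and 0.267, 0.165, 0.665 and 0.01596 in AOM/DSS. Wbscr17 had a log2 fold change of -1.39 (SE 0.17, adjusted p = 0.00283). Gcnt1, which branches mucin sugars, lay wholly below control at 25.6, 28.3, 24.1 and 41.3 FPKM in control and 10.4, 21.01, 13.4 and 17.4 in AOM/DSS but was not called (log2 fold change -0.91, adjusted p = 0.0876). These enzymes were brought together after their values were seen.

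Defence genes moved both ways. Of 21 tested epithelial antimicrobial and acute-phase genes, 2 were called higher (Slpi and Nos2) and 1 lower (Chit1), and the list median was 0.91, with 3 members wholly above and 3 wholly below control. Without AOM/DSS 3 the call of Chit1 was kept and those of Slpi and Nos2 ended. Of the whole list, tested or not, 5 genes were among the 81 far above in AOM/DSS 3. The summed level of the list overlapped, at 5608 to 7841 FPKM in control and 5013 to 7375 in AOM/DSS. Slpi, a secreted inhibitor of neutrophil elastase, was at 4.77, 3.37, 11.8 and 7.62 FPKM in control and 20.2, 70.5, 16.02 and 27.6 in AOM/DSS, with AOM/DSS 1 far above the others. Slpi had a log2 fold change of 2.01 (SE 0.45, adjusted p = 0.0472), and 6 of 8 leave-outs ended the call (adjusted p up to 0.13). Chit1, a chitin-degrading enzyme, was at 11.03, 9.57, 9.11 and 14 FPKM in control and 2.31, 3.11, 3.34 and 0.651 in AOM/DSS, wholly below control. Chit1 had a log2 fold change of -1.91 (SE 0.26, adjusted p = 0.00397), and held in every leave-out. Reg3b, an antibacterial lectin, varied widely within each group, at 0.128, 323, 13.2 and 25.02 FPKM in control and 0.9398, 356, 48.2 and 663 in AOM/DSS, so no difference could be shown (log2 fold change 1.85, adjusted p = 0.755). Saa1, an acute-phase protein, was at 2333, 3030, 2322 and 2411 FPKM in control and 1229, 2142, 1314 and 1716 in AOM/DSS, wholly below control without a call (log2 fold change -0.68, adjusted p = 0.207).

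Ifi47, a GTPase induced by interferon-gamma, was at 3.43, 2.15, 1.43 and 1.76 FPKM in control and 6.99, 8.702, 11.7 and 15.7 in AOM/DSS, highest in AOM/DSS 3, and held in every leave-out. Ifi47 had a log2 fold change of 1.87 (SE 0.26, adjusted p = 0.00411). It was the 1 call among 12 tested interferon-gamma GTPases. Lgals9, a lectin that acts on T cells, was at 30.6, 50.5, 24.1 and 34.7 FPKM in control and 55.2, 54.1, 74.6 and 99.01 in AOM/DSS. Lgals9 had a log2 fold change of 1.00 (SE 0.22, adjusted p = 0.0472), and 6 of 8 leave-outs ended the call (adjusted p up to 0.141). Lgals3bp, a secreted partner of galectin-3, was at 64.7, 51.8, 49.3 and 48.5 FPKM in control and 81.6, 77.3, 91.1 and 149 in AOM/DSS, with AOM/DSS 3 far above the rest. Lgals3bp had a log2 fold change of 0.84 (SE 0.18, adjusted p = 0.0426), and 5 of 8 leave-outs ended the call (adjusted p up to 0.149). Ffar2, a receptor for short-chain fatty acids, was at 0.963, 3.62, 1.95 and 1.196 FPKM in control and 9.19, 4.49, 4.04 and 7.11 in AOM/DSS, and AOM/DSS 2 exceeded control 1 narrowly. Ffar2 had a log2 fold change of 1.32 (SE 0.29, adjusted p = 0.0472), and 6 of 8 leave-outs ended the call (adjusted p up to 0.17).

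Among 29 tested cytokines and receptors, Il4ra and Tgfb1 were called higher and Il15 lower. Il15, a cytokine that epithelial cells present to lymphocytes within the epithelium, was at 33.1, 33.1, 24.7 and 42.8 FPKM in control and 10.8, 10.6, 11.7 and 11.8 in AOM/DSS. The AOM/DSS libraries were nearly level, all under the lowest control, and the fall held in every leave-out (log2 fold change of -1.47 with an SE of 0.16, adjusted p = 0.00163). Il4ra, the receptor chain shared by interleukins 4 and 13, was at 4.06, 4.6, 3.52 and 5.58 FPKM in control and 6.301, 9.75, 12.4 and 13.2 in AOM/DSS. Il4ra had a log2 fold change of 1.04 (SE 0.20, adjusted p = 0.0254), a call that ended without control 0, control 2 or AOM/DSS 3 (adjusted p up to 0.0755). Tgfb1, which restrains inflammation and promotes repair, was at 1.53, 0.9403, 1.096 and 0.615 FPKM in control and 2.68, 2.81, 3.58 and 1.66 in AOM/DSS, low in all libraries. Tgfb1 had a log2 fold change of 0.84 (SE 0.19, adjusted p = 0.0497), and 7 of 8 leave-outs ended the call (adjusted p up to 0.177). Pmepa1, a feedback inhibitor of transforming growth factor beta signalling, was at 2.53, 3.43, 3.67 and 3.11 FPKM in control and 6.297, 11.1, 9.004 and 19.3 in AOM/DSS, with a rise that held in every leave-out. Pmepa1 had a log2 fold change of 1.47 (SE 0.24, adjusted p = 0.00932). Nlrp1b, a sensor that starts an inflammasome, was at 8.29, 8.08, 7.74 and 9.58 FPKM in control and 5.13, 6.02, 6.06 and 5.22 in AOM/DSS (log2 fold change of -0.51 with an SE of 0.11, adjusted p = 0.0351), and Nlrp10, of the same family, was called lower too (log2 fold change -0.71, adjusted p = 0.0466). They were the calls among 21 tested inflammasome and gasdermin genes, and 5 and 6 of 8 leave-outs ended them (adjusted p up to 0.138 and 0.155). Irf2, a repressor of interferon responses, fell at a high level, at 63.4, 75.2, 72.7 and 69.7 FPKM in control and 51.2, 52.5, 53.9 and 46.8 in AOM/DSS. Irf2 had a log2 fold change of -0.45 (SE 0.10, adjusted p = 0.041), and 6 of 8 leave-outs ended the call (adjusted p up to 0.131).

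**Figure D3:**
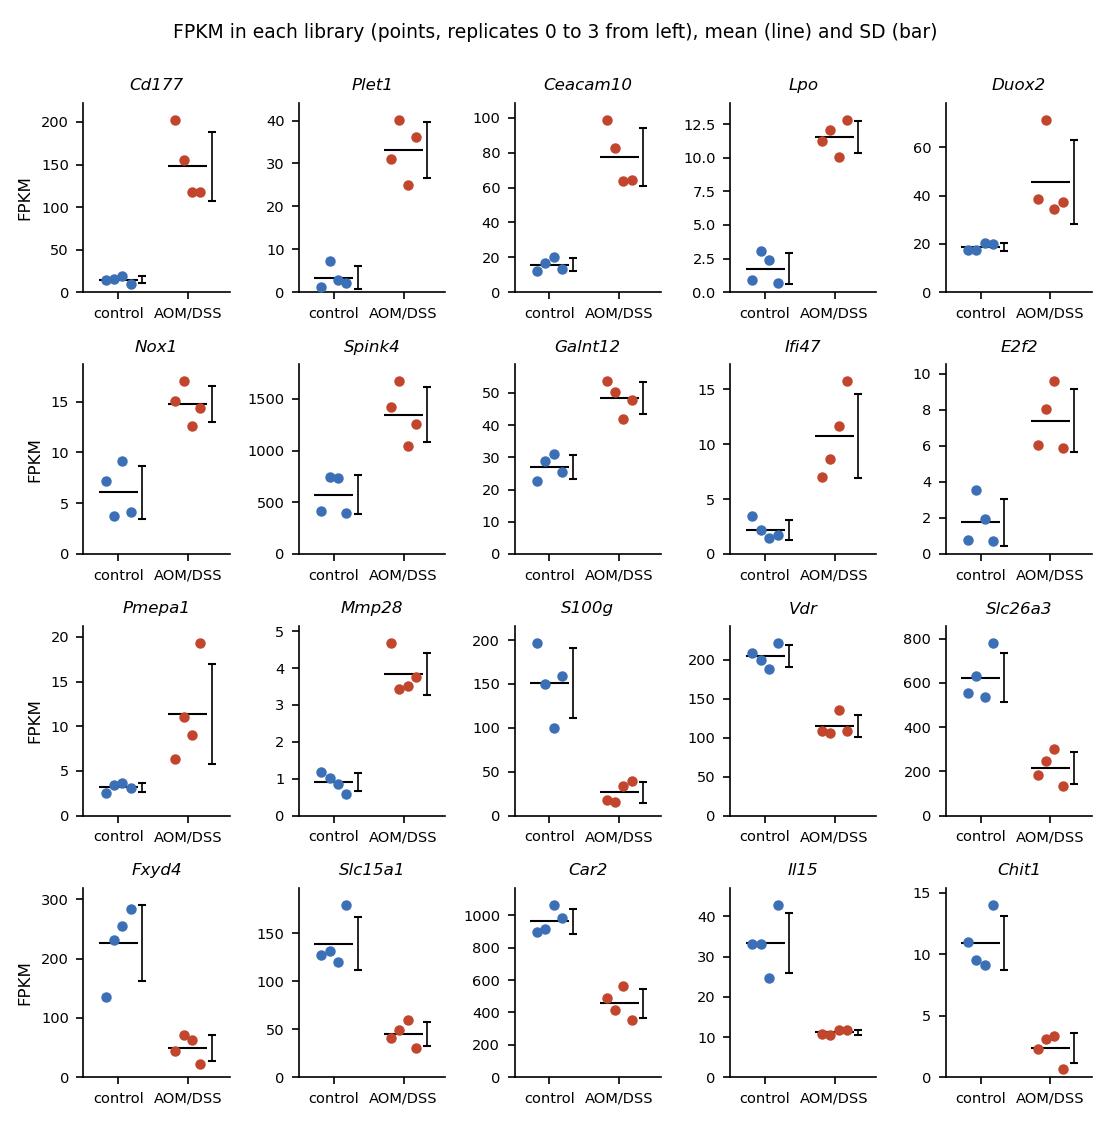
Points are the FPKM of 20 genes in each control (blue) and AOM/DSS (red) library, in replicate order from left, with the mean as a line and the SD (n = 4) as a bar beside it; each axis starts at 0. The 20 genes have groups that do not overlap, and Il15, Lpo and Vdr vary little among the AOM/DSS libraries compared with the distance from control.

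Some abundant transporters of the absorptive surface fell, while most genes of these lists were not called. Slc26a3, the chloride/bicarbonate exchanger, was at 553, 630.1, 534 and 779 FPKM in control and 185, 249, 299 and 133 in AOM/DSS, lowest in AOM/DSS 3. Slc26a3 had a log2 fold change of -1.57 (SE 0.22, adjusted p = 0.00411), and held in every leave-out. Atp12a, the colonic proton/potassium pump, was at 369, 191, 325 and 373 FPKM in control and 124, 159, 78.5 and 47.7 in AOM/DSS. Atp12a had a log2 fold change of -1.70 (SE 0.33, adjusted p = 0.0283), a call that ended without control 0, 2 or 3 or AOM/DSS 3 (adjusted p up to 0.11). These were the calls among 22 tested chloride, bicarbonate and proton exchange genes, of which 14 had the lower and 8 the higher mean (median -0.12). Car2, a cytosolic carbonic anhydrase that supplies bicarbonate and protons, was at 894, 912, 1062 and 979.6 FPKM in control and 486, 417, 563 and 355 in AOM/DSS. Car2 had a log2 fold change of -1.09 (SE 0.15, adjusted p = 0.00411) and held in every leave-out. Car4, the membrane-bound form, was at 1037, 1098, 1013 and 1207 FPKM in control and 492, 706, 536 and 394 in AOM/DSS. Car4 had a log2 fold change of -1.06 (SE 0.22, adjusted p = 0.0351), and 7 of 8 leave-outs ended the call (adjusted p up to 0.131). The other 7 of 9 tested carbonic anhydrases were not called.

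Sodium handling gave 3 falls and 0 rises among 27 tested sodium and potassium genes, and 1 fall was kept without AOM/DSS 3. Of the 27, 15 had the lower and 12 the higher mean (median -0.08), and 0 of 4 tested aquaporins were called. Fxyd4, a regulator of the sodium pump, was at 136, 232, 255 and 283 FPKM in control and 44.3, 70.5, 62.6 and 22 in AOM/DSS, without overlap. Fxyd4 had a log2 fold change of -2.23 (SE 0.34, adjusted p = 0.00721), and held in every leave-out. Atp1b1, the beta subunit of that pump, fell less steeply, at 839.9, 839, 921 and 971 FPKM in control and 607, 654, 641 and 548 in AOM/DSS. Atp1b1 had a log2 fold change of -0.54 (SE 0.12, adjusted p = 0.0492), and 8 of 8 leave-outs ended the call (adjusted p up to 0.172). Nr3c2, the mineralocorticoid receptor through which aldosterone acts, was at 52.3, 46.9, 33.3 and 58.6 FPKM in control and 25.3, 31.2, 29.2 and 22.7 in AOM/DSS. Nr3c2 had a log2 fold change of -0.78 (SE 0.16, adjusted p = 0.0377), and 5 of 8 leave-outs ended the call (adjusted p up to 0.138). The 3 subunits of the epithelial sodium channel that aldosterone induces had lower means but overlapped. Scnn1a had a log2 fold change of -0.76 (adjusted p = 0.0948), Scnn1b of -0.92 (adjusted p = 0.121) and Scnn1g of -1.37 (adjusted p = 0.0889). Against this direction, Kcnk1, a potassium channel, lay wholly above control at 25.7, 38.1, 35.9 and 27.95 FPKM in control and 59.02, 49.8, 41.9 and 57.4 in AOM/DSS without a call (log2 fold change 0.69, adjusted p = 0.0521).

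Calcium handling included S100g, calbindin-D9k, the cytosolic calcium carrier, at 196, 149.7, 100.4 and 159 FPKM in control and 17.4, 15.8, 33.2 and 39.2 in AOM/DSS. Every AOM/DSS library lay far below the lowest control (log2 fold change of -2.54 with an SE of 0.33, adjusted p = 0.00352), and the fall held in every leave-out. Vdr, the vitamin D receptor that drives S100g, was at 209, 201, 189 and 221 FPKM in control and 109, 106, 136 and 109 in AOM/DSS, also holding in every leave-out. Vdr had a log2 fold change of -0.83 (SE 0.11, adjusted p = 0.00352). They were the 2 calls among 15 tested calcium and vitamin D genes, of which 9 had the lower mean (median -0.12).

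Of 46 tested sugar, peptide, amino acid and phosphate transporters, 4 were called lower and 1 higher, and without AOM/DSS 3 the 4 falls were kept and the rise was not. Slc15a1, which takes up small peptides, was at 127, 131, 119.7 and 179 FPKM in control and 40.8, 49.8, 59.9 and 30.1 in AOM/DSS. Slc15a1 had a log2 fold change of -1.63 (SE 0.20, adjusted p = 0.00259). Slc37a2, a sugar phosphate exchanger, was at 226, 85.6, 109 and 176 FPKM in control and 29.7, 31.9, 38.8 and 11.8 in AOM/DSS (log2 fold change of -2.38 with an SE of 0.36, adjusted p = 0.00737), and Slc20a1, a sodium/phosphate cotransporter, at 234, 118, 146 and 262 FPKM in control and 49.4, 80.6, 76.6 and 44.1 in AOM/DSS. Slc20a1 had a log2 fold change of -1.56 (SE 0.26, adjusted p = 0.0117). All 3 falls held in every leave-out, and AOM/DSS 3 was the lowest library in each. Slc2a5, the fructose transporter, was at 5.21, 4.83, 3.75 and 6.84 FPKM in control and 1.12, 1.56, 0.451 and 2.68 in AOM/DSS, a fall that ended without control 3 (log2 fold change of -1.38 with an SE of 0.24, adjusted p = 0.0136; 0.0597 without it). The rise was Slc1a4, a transporter of alanine, serine and cysteine, at 2.67, 3.01, 3.16 and 2.15 FPKM in control and 9.84, 4.17, 5.42 and 11.9 in AOM/DSS. Slc1a4 had a log2 fold change of 1.15 (SE 0.26, adjusted p = 0.0476), and 6 of 8 leave-outs ended the call (adjusted p up to 0.17). Outside the list, Slc6a9, a glycine transporter, was at 3.86, 3.49, 3.27 and 3.91 FPKM in control and 8.38, 7.29, 6.79 and 9.52 in AOM/DSS. Slc6a9 had a log2 fold change of 0.95 (SE 0.13, adjusted p = 0.00397) and held in every leave-out, although 30.2% of its exon bases are shared with other genes. Slc6a4, the serotonin transporter, was at 31.7, 14.3, 20.5 and 27.3 FPKM in control and 8.83, 8.35, 10.1 and 5.07 in AOM/DSS. Slc6a4 had a log2 fold change of -1.40 (SE 0.23, adjusted p = 0.00932) and held in every leave-out. Slco2a1, which takes up prostaglandins for breakdown, was at 56.3, 48.9, 34.5 and 75.2 FPKM in control and 25.4, 25, 23.8 and 24.5 in AOM/DSS, nearly level among the AOM/DSS libraries. Slco2a1 had a log2 fold change of -1.04 (SE 0.22, adjusted p = 0.0406), and 7 of 8 leave-outs ended the call (adjusted p up to 0.132).

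Metabolic genes were called in both directions. Ephx2, the epoxide hydrolase that inactivates lipid epoxides, was at 17.2, 18.3, 16.6 and 23.4 FPKM in control and 8.82, 9.22, 8.49 and 11.8 in AOM/DSS, a fall that held in every leave-out. Ephx2 had a log2 fold change of -0.91 (SE 0.13, adjusted p = 0.00552). Cndp2, a dipeptidase, was at 83.95, 85.01, 72.5 and 106 FPKM in control and 41.5, 42.7, 47.5 and 55.95 in AOM/DSS, likewise holding. Cndp2 had a log2 fold change of -0.87 (SE 0.13, adjusted p = 0.00759). Cyp2d12, a cytochrome P450 with close copies that may share reads, was at 108, 57.7, 48.5 and 108 FPKM in control and 16.7, 33.7, 21.6 and 13.7 in AOM/DSS. Cyp2d12 had a log2 fold change of -1.85 (SE 0.30, adjusted p = 0.0098). Ppargc1a, a coactivator of mitochondrial genes, was at 18.9, 17.9, 13.02 and 20.02 FPKM in control and 11.01, 8.62, 11.2 and 9.73 in AOM/DSS. Ppargc1a had a log2 fold change of -0.72 (SE 0.15, adjusted p = 0.0351), and 6 of 8 leave-outs ended the call (adjusted p up to 0.137). None of 76 tested respiratory chain subunits was called by limma (median -0.03, with 1 unadjusted p below 0.05 higher and 0 lower). Oxct1, the enzyme that lets tissues burn ketone bodies, was at 123, 146, 142 and 159 FPKM in control and 79.4, 95.5, 103 and 102 in AOM/DSS. Oxct1 had a log2 fold change of -0.58 (SE 0.12, adjusted p = 0.0389), and 6 of 8 leave-outs ended the call (adjusted p up to 0.148). Dio1, a deiodinase that activates thyroid hormone, was at 101, 119, 105 and 131 FPKM in control and 69.8, 51.04, 70.3 and 77.5 in AOM/DSS. Dio1 had a log2 fold change of -0.76 (SE 0.17, adjusted p = 0.0452), and 8 of 8 leave-outs ended the call (adjusted p up to 0.163). On the higher side, Scd1, which makes monounsaturated fatty acids, was at 6.51, 4.56, 6.38 and 5.92 FPKM in control and 9.61, 10.5, 11.9 and 16.7 in AOM/DSS (log2 fold change of 0.93 with an SE of 0.17, adjusted p = 0.0172), and Cbs, the first enzyme of cysteine synthesis from homocysteine, at 13.05, 9.68, 9.77 and 8.46 FPKM in control and 34.8, 18.5, 19.3 and 22.8 in AOM/DSS. Cbs had a log2 fold change of 1.12 (SE 0.19, adjusted p = 0.0119). Leaving out control 3 alone ended both of these calls (adjusted p = 0.0597 and 0.0527). Ckb, a creatine kinase, was at 1.64, 1.199, 1.41 and 0.871 FPKM in control and 7.58, 5.69, 4.13 and 11.4 in AOM/DSS. Ckb had a log2 fold change of 1.78 (SE 0.24, adjusted p = 0.00352) and held in every leave-out, the 1 call among 5 tested creatine kinase and creatine synthesis genes, of which the other 4 had the lower mean, 2 of them wholly below control (list median -0.52).

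Genes of junctions, matrix and shape also differed. Gjb5, a connexin of gap junctions, was at 24.98, 26.7, 26.7 and 44.1 FPKM in control and 8.79, 10.8, 12.1 and 6.09 in AOM/DSS. Gjb5 had a log2 fold change of -1.60 (SE 0.26, adjusted p = 0.00916) and held in every leave-out. Tgm3, a transglutaminase that cross-links proteins, was at 923, 694, 675 and 856 FPKM in control and 272, 316, 526 and 197 in AOM/DSS. Tgm3 had a log2 fold change of -1.34 (SE 0.24, adjusted p = 0.0164), a call that ended without control 0, control 3 or AOM/DSS 0 (adjusted p up to 0.0631).

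Mmp28, a secreted metalloprotease, was at 1.18, 1.02, 0.869 and 0.592 FPKM in control and 4.67, 3.44, 3.51 and 3.77 in AOM/DSS. Mmp28 had a log2 fold change of 1.34 (SE 0.14, adjusted p = 0.00148) and held in every leave-out. Its antisense neighbour 1700020L24Rik was called too but shares 44.4% of its exon bases with Mmp28 on the other strand, so reads in the shared stretch may come from either gene. Mmp14, a membrane-bound metalloprotease, was at 14.8, 9.33, 12.9 and 12.8 FPKM in control and 22.8, 17.1, 20.8 and 24.9 in AOM/DSS. Mmp14 had a log2 fold change of 0.74 (SE 0.16, adjusted p = 0.0452), and 7 of 8 leave-outs ended the call (adjusted p up to 0.13). Timp3, an inhibitor of metalloproteases, was lower at 17.1, 24.3, 13.7 and 27.6 FPKM in control and 8.36, 9.45, 11.5 and 7.61 in AOM/DSS. Timp3 had a log2 fold change of -1.05 (SE 0.20, adjusted p = 0.026), and 4 of 8 leave-outs ended the call (adjusted p up to 0.0906). Timp3 lies inside Syn3 and shares 21.3% of its exon bases with it on the other strand. Zyx, a protein of focal adhesions, was at 9.65, 9.81, 7.77 and 10.3 FPKM in control and 14.1, 15.4, 16.8 and 18.1 in AOM/DSS, a small rise that held in every leave-out. Zyx had a log2 fold change of 0.72 (SE 0.12, adjusted p = 0.0136). Fhl1, a scaffold protein best known from muscle, was at 227, 278, 214 and 244 FPKM in control and 109.6, 137, 143 and 115 in AOM/DSS. Fhl1 had a log2 fold change of -0.93 (SE 0.12, adjusted p = 0.00352) and held in every leave-out.

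Genes of growth control gave few calls. E2f2, which activates genes for entry into S phase, was at 0.797, 3.54, 1.92 and 0.724 FPKM in control and 6.05, 8.04, 9.57 and 5.904 in AOM/DSS. E2f2 had a log2 fold change of 1.71 (SE 0.27, adjusted p = 0.0087) and held in every leave-out. Orc1, a subunit that marks replication origins, was at 2.19, 1.44, 2.67 and 1.23 FPKM in control and 4.19, 3.099, 3.56 and 3.98 in AOM/DSS. Orc1 had a log2 fold change of 0.73 (SE 0.16, adjusted p = 0.0466), and 6 of 8 leave-outs ended the call (adjusted p up to 0.158). It was the 1 call among 42 tested replication genes, of which 38 had the higher mean (median 0.28). All 37 tested mitosis genes had the higher mean in AOM/DSS, 32 with an unadjusted p below 0.05, but 0 were called and 0 had groups that did not overlap (median 0.76). Over all tested genes 52.6% had the higher mean, and 6.27% were higher with an unadjusted p below 0.05. Mki67, the proliferation antigen, was at 11.4, 3.34, 11.8 and 4.98 FPKM in control and 13.1, 18.6, 8.02 and 14.6 in AOM/DSS. Mki67 had a log2 fold change of 0.81 (adjusted p = 0.342). Foxm1, which activates mitotic genes, was at 2.32, 0.812, 2.55 and 1.05 FPKM in control and 3.76, 5.201, 2.18 and 3.97 in AOM/DSS (log2 fold change 0.85, adjusted p = 0.136). Ccnb1, the mitotic cyclin, was at 5.71, 2.47, 6.87 and 2.22 FPKM in control and 7.57, 14.5, 5.72 and 14.7 in AOM/DSS (log2 fold change 1.143, adjusted p = 0.136). In each of these 3, controls 1 and 3 were low, and control 2 lay above AOM/DSS 2. Cdc25c, a phosphatase that starts mitosis, was at 1.25, 0.811, 1.144 and 0.5798 FPKM in control and 1.73, 3.86, 1.17 and 3.14 in AOM/DSS (log2 fold change 0.78, adjusted p = 0.146), with control 0 above AOM/DSS 2. Leaving out AOM/DSS 2 brought Cdc25c past the threshold (adjusted p = 0.0453). The summed mitosis level was 366, 187, 477 and 190 FPKM in control and 453, 672, 297 and 558 in AOM/DSS. The genes share libraries and cells, so they are not 37 separate observations.

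Max, the partner of Myc, was lower at 152, 177, 156 and 193 FPKM in control and 93.1, 102, 115 and 97.1 in AOM/DSS. Max had a log2 fold change of -0.73 (SE 0.14, adjusted p = 0.03), and 5 of 8 leave-outs ended the call (adjusted p up to 0.123). Tcf7l2, a transcription factor of Wnt signalling, was lower at 31.8, 37.1, 36.7 and 47.03 FPKM in control and 18.5, 28.4, 24.3 and 22.4 in AOM/DSS. Tcf7l2 had a log2 fold change of -0.68 (SE 0.15, adjusted p = 0.0471), and 7 of 8 leave-outs ended the call (adjusted p up to 0.165). None of 17 tested crypt stem cell and Wnt target genes was called, and 15 had the higher mean (median 0.30). Their smallest p-values were those of Cd44, an adhesion receptor, at 1.74, 2.33, 2.45 and 0.812 FPKM in control and 4.597, 4.098, 2.92 and 9.47 in AOM/DSS (log2 fold change 1.09, adjusted p = 0.0945), Ephb2, a receptor that positions crypt cells (log2 fold change 0.62, adjusted p = 0.133), and the cyclin Ccnd1 (log2 fold change 0.57, adjusted p = 0.191). Mcl1, which protects cells from apoptosis, was lower at 195, 249, 241 and 249 FPKM in control and 148, 117, 184 and 147 in AOM/DSS. Mcl1 had a log2 fold change of -0.66 (SE 0.15, adjusted p = 0.0492), and 7 of 8 leave-outs ended the call (adjusted p up to 0.171).

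The circadian clock held more calls than any other list: of 21 tested clock and clock output genes 8 were called lower and 1 higher, with a median of -0.86. Of the 8 falls, 6 were kept without AOM/DSS 3, 8 without AOM/DSS 1 and 4 without control 3, the fewest of the 8 leave-outs. In the clock, Arntl (Bmal1) with Clock or Npas2 binds E-boxes, the letters CACGTG, and switches on the Per, Cry and Nr1d genes, which feed back on it. Dbp and Tef bind a further element, the D-box, which Nfil3 blocks. Promoters of 4 clock-related genes called lower are shown, those with a match to either element. The choice was by theme, as 14 genes called lower hold CACGTG and most of these are not shown. The windows of Dbp, Nr1d2, Cry2 and Usp2, also called lower, and a second start of Cipc hold neither element and are not shown. They are the 250 bases before the start site in RefSeq (GRCm38.p6), for Ciart chr3:95882229-95882478 (minus strand), for Tef chr15:81802423-81802672 (plus strand), for Cipc chr12:86947093-86947342 (plus strand) and for Per3 chr4:151044666-151044915 (minus strand). Each match to CACGTG or to the D-box letters TTATGTAA, on either strand, is in capitals. Cipc, a repressor of Clock, was not on the clock list and is described here for its small adjusted p.

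Ciart: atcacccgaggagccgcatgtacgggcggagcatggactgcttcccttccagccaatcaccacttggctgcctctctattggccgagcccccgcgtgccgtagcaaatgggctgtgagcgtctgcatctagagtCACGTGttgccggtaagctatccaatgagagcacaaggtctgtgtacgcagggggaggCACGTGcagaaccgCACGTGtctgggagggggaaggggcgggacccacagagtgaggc
Tef: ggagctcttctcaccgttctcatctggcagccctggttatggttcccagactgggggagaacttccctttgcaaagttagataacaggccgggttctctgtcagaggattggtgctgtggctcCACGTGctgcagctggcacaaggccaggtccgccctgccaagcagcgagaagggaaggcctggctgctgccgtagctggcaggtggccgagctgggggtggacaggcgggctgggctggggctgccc
Cipc: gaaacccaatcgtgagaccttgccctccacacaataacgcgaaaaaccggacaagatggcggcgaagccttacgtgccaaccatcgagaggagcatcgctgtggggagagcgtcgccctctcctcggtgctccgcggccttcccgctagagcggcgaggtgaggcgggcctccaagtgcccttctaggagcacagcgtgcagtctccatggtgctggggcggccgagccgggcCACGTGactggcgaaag
Per3: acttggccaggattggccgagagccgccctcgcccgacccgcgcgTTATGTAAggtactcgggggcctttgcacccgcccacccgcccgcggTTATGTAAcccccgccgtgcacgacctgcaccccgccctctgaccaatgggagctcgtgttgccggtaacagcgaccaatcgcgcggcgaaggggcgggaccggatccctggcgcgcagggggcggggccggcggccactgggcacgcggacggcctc

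CACGTG occurs 3 times in the Ciart promoter and once in the Tef and Cipc promoters shown, and TTATGTAA 2 times in that of Per3. Of all 32851 promoters of this length in the table, 6.02% hold CACGTG and 0.819% hold TTATGTAA. Promoters were found for 7 of the 8 clock genes called lower, in 8 windows, of which 3 hold CACGTG, in Ciart and at both Tef starts. Promoters were found for 83 of the 111 genes called lower, and 15 of their 105 windows (14.3%) hold CACGTG. For genes called higher they were found for 52 of 65, and 5 of 63 windows (7.94%) hold it. TTATGTAA is in 1 of the 8 clock windows, in 2 of 105 windows of genes called lower (1.90%) and in 0 of 63 of genes called higher. The shares over all promoters include genes that did not pass the filter, and a share over tested genes alone was not taken. Whether called genes hold more matches than other tested genes was therefore not tested. A match is a description of letters in this window and shows no binding.

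The clock genes differed widely among the AOM/DSS libraries. Dbp was at 104, 41.3, 57.2 and 81.4 FPKM in control and 7.65, 26.6, 2.03 and 12.4 in AOM/DSS; AOM/DSS 2 was lowest and AOM/DSS 1 nearest to control (log2 fold change of -2.78 with an SE of 0.52, adjusted p = 0.0213). Ciart, a repressor of Arntl and Clock, was at 21.3, 11.2, 19.1 and 32.8 FPKM in control and 1.39, 6.69, 0.7499 and 2.88 in AOM/DSS, with the same libraries lowest and highest. Ciart had a log2 fold change of -2.63 (SE 0.40, adjusted p = 0.00759). Tef was at 61.8, 44.3, 50.1 and 71.95 FPKM in control and 11.9, 28, 7.001 and 17.2 in AOM/DSS (log2 fold change of -1.90 with an SE of 0.30, adjusted p = 0.00857), again in that order. The calls of Ciart and Tef held in every leave-out, whereas that of Dbp ended without control 0, control 3 or AOM/DSS 0 (adjusted p up to 0.0804).

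Nr1d2, a repressor of Arntl, was at 37.4, 32.1, 37.2 and 41.5 FPKM in control and 10.5, 16.3, 12.1 and 18.4 in AOM/DSS, and held in every leave-out. Nr1d2 had a log2 fold change of -1.34 (SE 0.18, adjusted p = 0.00352). Per3 was at 15.3, 5.99, 8.395 and 13.5 FPKM in control and 3.57, 5.05, 1.44 and 2.35 in AOM/DSS. Per3 had a log2 fold change of -1.53 (SE 0.31, adjusted p = 0.0342), and 6 of 8 leave-outs ended the call (adjusted p up to 0.132). Cry2 was at 14.8, 13.6, 11.1 and 16.1 FPKM in control and 7.67, 8.96, 7.41 and 6.36 in AOM/DSS. Cry2 had a log2 fold change of -0.79 (SE 0.13, adjusted p = 0.0131), a call that ended without control 3 (adjusted p = 0.0553). Cipc was at 64.9, 58.9, 56.1 and 77.7 FPKM in control and 31.5, 28.9, 28.99 and 32.1 in AOM/DSS, with an even fall that held in every leave-out. Cipc had a log2 fold change of -1.05 (SE 0.12, adjusted p = 0.00259). Usp2, a clock-driven deubiquitinase, was called with overlapping groups, at 20.1, 6.78, 17.1 and 23.2 FPKM in control and 3.72, 8.96, 4.09 and 4.47 in AOM/DSS. Usp2 had a log2 fold change of -1.44 (SE 0.32, adjusted p = 0.0466), and 6 of 8 leave-outs ended the call (adjusted p up to 0.166).

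Activators of the clock and the D-box repressor had higher means. Nfil3 was at 1.27, 1.19, 0.54 and 0.566 FPKM in control and 2.404, 1.62, 4.77 and 4.202 in AOM/DSS. Nfil3 had a log2 fold change of 1.12 (SE 0.24, adjusted p = 0.0441), and 7 of 8 leave-outs ended the call (adjusted p up to 0.155). Arntl was at 6.88, 10.97, 6.02 and 9.44 FPKM in control and 16.6, 8.24, 29.8 and 15.7 in AOM/DSS, overlapping through AOM/DSS 1, and was not called (log2 fold change 0.90, adjusted p = 0.194). Without AOM/DSS 1 it was called (1.19, adjusted p = 0.0427). Npas2 lay wholly above control at 4.67, 5.65, 3.65 and 4.29 FPKM in control and 8.46, 6.26, 12.2 and 7.58 in AOM/DSS without a call (log2 fold change 0.76, adjusted p = 0.0883). Nr1d1, at 69.9, 84.7, 57.6 and 66.4 FPKM in control and 40.98, 45.6, 26.5 and 40.2 in AOM/DSS, and Wee1, at 12.1, 5.299, 8.47 and 9.67 FPKM in control and 3.58, 5.16, 2.68 and 4.03 in AOM/DSS, lay wholly below and just missed the threshold (log2 fold changes -0.86 and -1.0, adjusted p = 0.0553 and 0.0583). Per2 overlapped at 15.3, 6.78, 10.2 and 14.1 FPKM in control and 7.65, 5.63, 3.64 and 3.44 in AOM/DSS. Per2 had a log2 fold change of -1.05 (adjusted p = 0.0705). AOM/DSS 2, lowest for Dbp, Ciart, Tef and Per3, was highest for Arntl, Npas2 and Nfil3. AOM/DSS 1, the library nearest to control for these genes, was the lowest AOM/DSS library for Arntl, Npas2 and Nfil3. The labels give no time of sampling, so a difference in the hour of sampling and one due to treatment cannot be told apart.

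**Figure D4:**
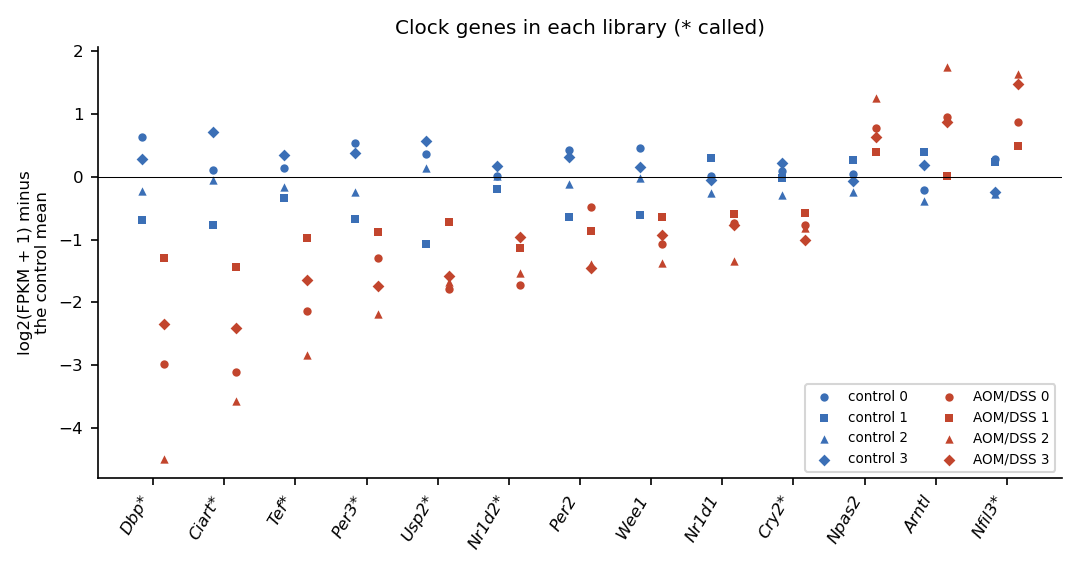
For 13 of the 21 tested clock genes, those described in the text, points give log2(FPKM + 1) minus the control mean in each control (blue) and AOM/DSS (red) library, with a marker shape per replicate and called genes starred. From Dbp (-2.78) at left to Nfil3 (1.12) at right, AOM/DSS 2 (red triangles) lies farthest from control and AOM/DSS 1 (red squares) nearest in most of the strongly changed genes.

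A few calls rest on very few reads. Mir142, the gene of a microRNA of blood cells, was listed at 0 in all 4 controls and was called on 6 reads in AOM/DSS (1, 2, 2 and 1). AF357359, a small noncoding RNA gene, was called on 5 reads (2, 1, 1 and 1) against 0. Such short genes turn single reads into FPKM above 1, so both are uncertain and no fold change is given. Of 8 leave-outs, 7 ended the call of Mir142 and 8 that of AF357359 (adjusted p up to 0.13 and 0.145). Mir142 also overlaps Mir142b entirely on the other strand. Among genes called with overlapping groups, Myl7, an atrial myosin light chain, was at 0.329, 7.01, 1.82 and 1.5 FPKM in control and 5.18, 23.05, 26.7 and 46.99 in AOM/DSS, highest in AOM/DSS 3. Myl7 had a log2 fold change of 2.84 (SE 0.57, adjusted p = 0.031), and 6 of 8 leave-outs ended the call (adjusted p up to 0.113). Nr4a1, an immediate early nuclear receptor, was at 1.41, 2.86, 1.94 and 1.85 FPKM in control and 4.81, 6.42, 7.89 and 2.81 in AOM/DSS. Nr4a1 had a log2 fold change of 1.06 (SE 0.24, adjusted p = 0.0493), and 6 of 8 leave-outs ended the call (adjusted p up to 0.165). The others were Wfdc18, Pla2g7, St8sia5 and Usp2. Less well described genes were called too: Scgb1b3, a secretoglobin, was at 0, 0.4699, 0.342 and 0.576 FPKM in control and 7.296, 2.48, 2.29 and 5.59 in AOM/DSS. Scgb1b3 had a log2 fold change of 1.91 (SE 0.40, adjusted p = 0.0377), and 6 of 8 leave-outs ended the call (adjusted p up to 0.1). The transcript 4930432K21Rik was at 4.87, 4.82, 3.19 and 7.36 FPKM in control and 1.103, 1.25, 1.33 and 0.483 in AOM/DSS, a fall that held in every leave-out (log2 fold change of -1.55 with an SE of 0.21, adjusted p = 0.00352). Smim24, a small membrane protein, was at 730.4, 590.0, 635 and 761 FPKM in control and 372, 368, 305 and 303 in AOM/DSS. Smim24 had a log2 fold change of -1.01 (SE 0.18, adjusted p = 0.0164), and 3 of 8 leave-outs ended the call (adjusted p up to 0.0673). Hepacam, an adhesion molecule, was at 3.05, 2.55, 1.88 and 3.26 FPKM in control and 0.396, 0.634, 0.819 and 0.347 in AOM/DSS, a fall that held in every leave-out. Hepacam had a log2 fold change of -1.25 (SE 0.17, adjusted p = 0.00352).

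Over the 65 lists, 1327 list genes were tested and 31 lists held at least 1 call. The lists hold 29 of the 65 genes called higher and 34 of the 111 called lower, and the remaining calls lie outside them. Heat shock chaperones had the higher mean in 22 of 26 tested members (median 0.39) and ribosome biogenesis genes in 31 of 35 (median 0.24), with 0 called in each. Hsph1, a chaperone of the Hsp110 family, was at 7.77, 17.8, 20.4 and 8.54 FPKM in control and 99.9, 32.9, 13.2 and 61.2 in AOM/DSS (log2 fold change 1.62, adjusted p = 0.153). Hspa1a, an inducible Hsp70, was at 1.98, 0.774, 0.692 and 1.29 FPKM in control and 214, 1.32, 3.89 and 33.7 in AOM/DSS, far above the rest in AOM/DSS 0 and 3 (log2 fold change 3.00, adjusted p = 0.207), and may share reads with its near-identical copy. Hspb1, a small heat shock protein, had a log2 fold change of 1.26 (adjusted p = 0.21). Without AOM/DSS 2, Hsph1 and Hspb1 were called (adjusted p = 0.02515 and 0.0126).

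**Figure D5:**
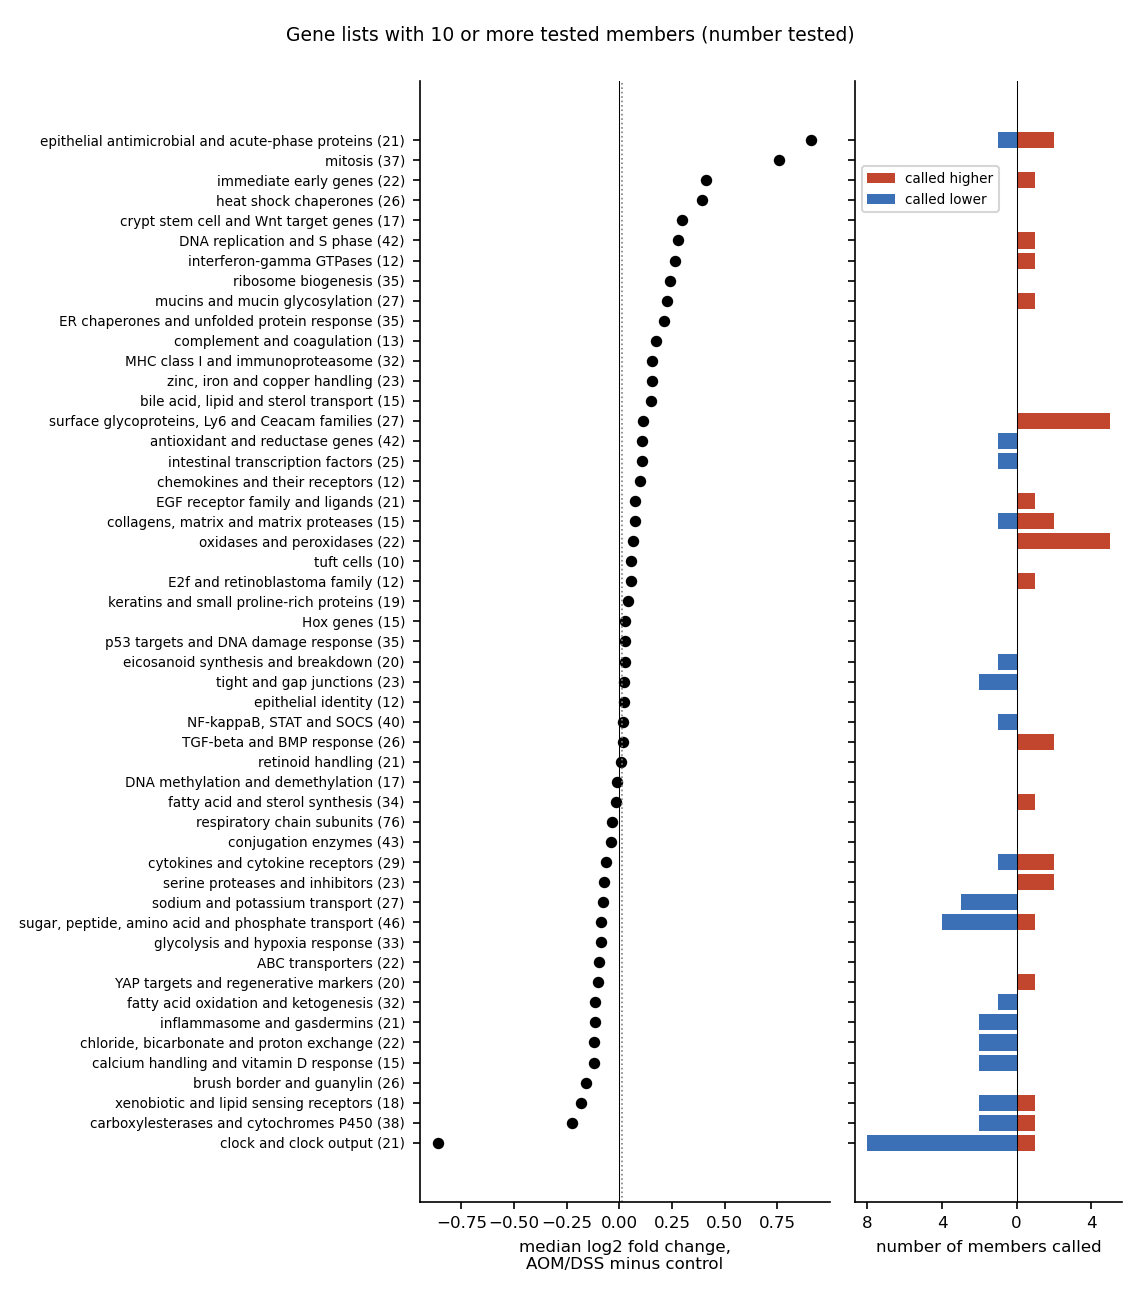
Lists with at least 10 tested members, with the number tested in parentheses: at left the median log2 fold change, AOM/DSS minus control, with the median of all genes (0.01) dotted; at right the number of members called higher (red) and lower (blue). Medians run from -0.86 (clock) to 0.91 (antimicrobial and acute-phase proteins), and mitosis has a median of 0.76 with 0 calls.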

How the data were processed

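Total RNA of scraped colon epithelial cells was sequenced by the authors, who deposited 1 FPKM value per gene symbol and library. The submitters' processing notes list the mouse build mm9, the counter featureCounts 1.5.1, the aligners Bowtie2 2.2.6 and TopHat2 2.1.1, Picard, and R 3.4.0 with DESeq2 1.14.1, in no order. How strand and shared reads were handled is not given in the sources used here.

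Genes with an FPKM of at least 1 in at least 4 of the 8 libraries were kept. The test was that of limma 3.58.1 (R 4.3.3) on log2(FPKM + 1), with 1 mean per group over all 12 libraries, an intensity trend, 9 residual degrees of freedom and Benjamini-Hochberg adjustment over the 11748 genes. Fold changes are on the log2(value + 1) scale, so changes of low genes are understated. SE is the moderated standard error, and "called" means an adjusted p below 0.05. FPKM steps gave whole reads for 19233 genes, within 0.001 of a whole number, and these reads gave the depths and the voom alternative. GC content, exon overlap and promoters came from GRCm38 annotation, with a GC value for 99.3% of tested genes. The calculations were tested on simulated data.

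The comparison and the gene lists were chosen with earlier results of these data known. Genes were named by size (15 each way by fold change, among genes whose groups do not overlap and with a mean of at least 2 FPKM in the higher group; 10 each way by difference in FPKM; 10 each way by adjusted p) and, for each list, by call or, where none was called, up to 3 members with the smallest p. Of the last, those of mitosis, Wnt target, chaperone and a few other lists are printed. Abo, B4galt1, Cbs, Ckap4, Cndp2, Dio1, Ffar2, Fkbp11, Galnt10, Kdelr3, Max, Mcl1, Mgat4a, Myl7, Oxct1, Slc6a4, Tcf7l2 and Zyx among called genes, the genes far above in AOM/DSS 3, and Agr2, Arntl, Cyba, Epcam, Gcnt1, Kcnk1, Ly6d, Maob, Mki67, Muc2, Npas2, Nr1d1, Per2, Reg3b, Saa1, Scnn1a, Scnn1b, Scnn1g and Wee1 among uncalled ones, were added after their values were seen. The labels do not say that libraries come from separate animals, so p-values measure only the spread between these samples, which may be technical. Alternatives changed the pseudocount, filter, scaling, libraries, variance model, test, GC handling and replicate block, and left out each library in turn. Some called genes counted in the lists are not reported here by name.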

Additional observations from a re-analysis of the deposited data

Results flagged for a closer look

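In the 176 called genes, each group of 4 libraries was checked for a library standing apart from the other 3, by the gap to its nearest neighbour divided by the range (Dixon's 95% limit). Of 352 groups, 18 were flagged, and chance flags about 1 in 20. In AOM/DSS, replicate 1 was high for Duox2 (71.5 FPKM, the others 34.4 to 38.7), St8sia5 (12.2), Usp2 (8.96) and Ccdc109b (4.55). Replicate 2 of AOM/DSS was high for Vdr (136 FPKM, the others 106 to 109), Mapre2 (35.8) and Nbl1 (21.8). AOM/DSS 3 was high for the protease Ctsf (6.00 FPKM), and AOM/DSS 0 was low for Fer1l4 (1.37).

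In control, replicate 3 was high for the connexin Gjb5 (44.1 FPKM, the others 25.0 to 26.7), Mgat4a (188) and Nlrp10 (6.61). Control 2 was high for Wfdc18 (23.3 FPKM) and low for Neo1 (20.9), Fbxo32 (32.5) and 4921531C22Rik (4.07). Control 0 was low for Mcl1 (195 FPKM) and Fahd1 (69.6). For Usp2, St8sia5 and Wfdc18 the library that stood apart overlapped the other group.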

How the results depend on the processing

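Against 65 genes called higher and 111 lower, library weights called 106 and 209, a fit of only the 8 libraries compared 25 and 36, and a required log2 fold change of 1 in size 39 and 44. The GC-rich libraries alone called 5 and 2, and the AT-rich libraries alone 4 and 0, with 1354 unadjusted p below 0.05 there. These last settings have fewer samples, and the cause of the other shifts was not tested. Leaving out 1 library in turn called 24 to 83 genes higher and 30 to 126 lower. In number of calls, the pseudocounts, filters, scalings, GC corrections, trend setting and voom (63 and 122) stayed within 1.5 times. The genes called changed more than these numbers. Of the 65 and 111 calls, 30 and 71 were kept with no filter and 49 and 76 when scaled to a common sum. Quantile normalization kept 46 and 107, and removal of the GC trend 51 and 101. Replicate 0 of control and of AOM/DSS deviated together (correlation 0.467), but replicates 1, 2 and 3 did not (-0.287, -0.233 and -0.071). Not every library correlated best with its own number. In both groups replicate 0 was GC-rich and replicates 2 and 3 were AT-rich. These correlations therefore cannot tell whether same-numbered libraries share more than a number. The replicate block called 37 higher and 53 lower. Of 4174 values for the called genes, 2617 kept the call, 1557 kept the direction but lost it, and 0 reversed. Low genes are limited by depth, down to 5567988 reads in control 1.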

Other observations

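Further genes that stood far above in AOM/DSS 3 are given as values, with no test, since they were picked by that pattern. Lyz1, the lysozyme of Paneth cells, was at 2.61, 7.005, 12.4 and 1.72 FPKM in control and 7.57, 16.4, 11.9 and 100.3 in AOM/DSS. Lcn2, which binds bacterial iron carriers, was at 0.342, 0, 0.252 and 0 FPKM in control and 0.119, 1.22, 0 and 15.9 in AOM/DSS, and Saa3, an acute-phase protein, at 4.76, 8.9, 2.97 and 1.97 FPKM in control and 2.49, 5.43, 5.58 and 75.8 in AOM/DSS. For both of these AOM/DSS 3 was highest. Slc51a, a subunit of the exporter that passes bile acids to the blood, was at 1.32, 10.7, 0.7896 and 2.14 FPKM in control and 1.45, 0.448, 1.19 and 139 in AOM/DSS. Mgp, a matrix protein of connective tissue, was at 2.43, 0, 0.599 and 0 FPKM in control and 0.5103, 4.62, 0.437 and 60.6 in AOM/DSS, and Tnfrsf11b, a decoy receptor for a cytokine of bone, at 0.06897, 0.2795, 0.305 and 0.114 FPKM in control and 0.253, 0.736, 0.155 and 12.9 in AOM/DSS. Ifitm3, an antiviral membrane protein, was at 18.3, 7.29, 21.6 and 6.83 FPKM in control and 21.5, 27.03, 19.2 and 161 in AOM/DSS. Each of these was low in the other 3 AOM/DSS libraries relative to replicate 3. Whether tissue of another region or kind entered this library was not tested.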
